A study of Rattus norvegicus with 12 samples.

Results

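Neonatal rat ventricular cardiomyocytes given a virus for the K815R mutant of KAT6A were compared with the same cells given a control virus, using 3 libraries of each, 6 of the 12 libraries of the study. The libraries were grouped by their labels, and all genes with enough reads were tested, with genes of fewer reads described apart. The cells were primary heart muscle cells of newborn rats, from which poly(A) RNA was sequenced 2 days after addition of an adenovirus. The LacZ group carried bacterial beta-galactosidase and served as the control. The K815R group carried human KAT6A with its lysine K815 replaced by arginine, a residue that cannot be acetylated. The other groups, which entered the fit and are given beside single genes and sets of genes, carried human wild-type KAT6A (WT) or, by label, the acetylation mimic K815Q. All groups therefore received adenovirus, and the KAT6A of the viruses was added to the KAT6A of the rat cells. The 3 libraries of a group are not said to come from separate preparations of cells, so p-values measure the spread between these libraries, which may be technical.

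KAT6A, also called MOZ, is the catalytic subunit of a histone acetyltransferase complex with BRPF, ING5 and MEAF6 subunits, and acetylates lysines of histone H3. It is best known for keeping HOX and other developmental genes active in embryos and for the self-renewal of blood stem cells. Acetyltransferases of this family can also be acetylated themselves, and arginine at such a lysine keeps the positive charge while blocking the modification.

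Gene counts of the 6 libraries summed to between 20076614 and 25451686, and each library had reads for 18061 to 18338 genes. At this depth a count of 3 corresponded to 0.118 to 0.155 CPM, the unit of level used below (counts scaled to library size), and levels under this floor have no order. Cardiomyocyte markers were abundant in both groups: Myh6, the alpha myosin heavy chain, stood at 12209 to 12442 CPM in LacZ and 12020 to 12603 CPM in K815R. Among the LacZ libraries, replicate 2 had the highest levels of interferon-responsive and cell cycle genes, and counts of called genes without it are given below. LacZ replicate 1 and replicate 3 lay closer to each other in both gene groups.

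Of 14063 genes tested, 348 differed between K815R and LacZ (2.47% of genes tested) in the quasi-likelihood test of edgeR at an adjusted p under 0.05 (Benjamini-Hochberg), the rule by which genes are called here. Of these, 104 were higher (0.740%) and 244 were lower (1.74%) in K815R. Over all genes tested, called or not, 51.2% had a positive log2 fold change. Of the lower genes, 85 belonged to lists of type I interferon response and antigen presentation genes, none of the higher genes did, and 159 lower genes lay outside those lists. The higher genes fell into separate ranges of level. Of the 18 higher genes that changed at least 2-fold (0.128%), 14 had mean levels under 1 CPM, 3 lay between 1 and 5 CPM, and above 5 CPM only Kat6a itself passed 2-fold. At least 2-fold lower were 56 genes (0.398%), 16 of them outside the interferon and antigen lists. Without LacZ replicate 2 the counts fell to 49 higher genes and 66 lower genes outside the lists, without K815R replicate 1 to 48 and 62, without K815R replicate 3 to 47 and 91 and without LacZ replicate 3 to 51 and 99. Of the 348 called genes, 114 were called in each of the 6 fits that left out 1 library. Called or not, 9.11% of tested genes had every K815R library above every LacZ library and 9.60% had every one below, so a gap between groups is no result by itself. Of the 348 called genes only Cox8b lacked such a gap.

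**Figure D1:**
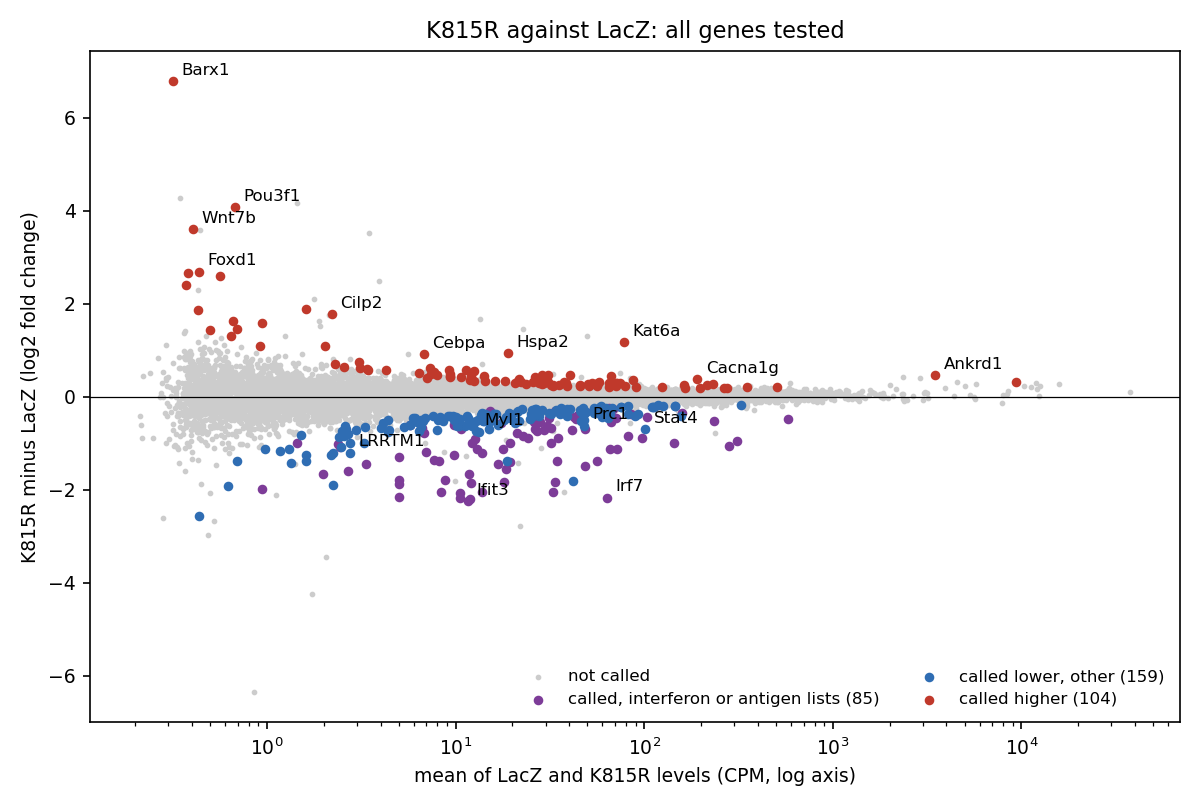
Each point is 1 of the 14063 genes tested, with the mean of the LacZ and K815R levels in CPM on a log axis and the log2 fold change, K815R minus LacZ, on the vertical axis; colours separate the 104 genes called higher, the 85 called lower in interferon or antigen lists and the 159 other lower genes. The highest fold changes sit at the lowest levels, where the fitted value depends on the prior count, while above 5 CPM Kat6a is the only higher gene past 1 on the log2 scale.

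The delivered gene was measured through rat Kat6a (ENSRNOG00000025174), whose counts may hold both rat and human reads that the files do not separate. Kat6a stood at 45.5, 45.2 and 53.6 CPM in LacZ and at 102, 122 and 101 CPM in K815R. The groups did not overlap, and the log2 fold change was 1.17 (SE 0.107), with an adjusted p of 1.95e-04. The WT libraries had a mean of 93.0 CPM, and K815R and WT did not differ beyond the spread (log2 difference 0.22, adjusted p 0.388). The libraries labelled K815Q had a mean of 46.3 CPM, at the level of LacZ, so their label was not borne out by this gene. Of the 12 tested genes for the complex of KAT6A and for its relatives, Kat6a alone was called. Prkaa2, a catalytic subunit of AMP-activated protein kinase (AMPK), the kinase named in the study's title, stood at 55.4, 54.8 and 72.7 CPM in LacZ and 78.1, 95.4 and 88.1 CPM in K815R, a log2 fold change of 0.52 that did not pass the test (adjusted p 0.19). The same gene averaged 519 CPM in WT and 1168 CPM in the K815Q-labelled libraries, and was lower in K815R than in WT by 2.57 on the log2 scale (adjusted p 1.81e-04).

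Among the genes past 2-fold were developmental regulators that were almost without reads in every group but K815R. They were singled out after their values were seen. Barx1, a homeobox factor of stomach and jaw mesenchyme, had 0 reads in each LacZ library and 12, 20 and 11 reads in K815R, and it had 1 read in all WT libraries together and 0 in those labelled K815Q. Against a floor of 3 reads per library its level was at least 4.99-fold higher in K815R than in LacZ. Pou3f1, a POU homeobox factor of Schwann cells and early neural tissue, had 0, 2 and 3 reads in LacZ and 22, 38 and 27 in K815R. Its K815R libraries lay far above every other library, since WT had 3 reads in each and the libraries labelled K815Q had 1, 4 and 2. Wnt7b, a secreted WNT ligand of lung and kidney development, had 3, 1 and 0 reads in LacZ and 17, 17 and 16 in K815R. Foxd1, a forkhead factor of kidney stroma, had 1, 2 and 5 reads in LacZ and 11, 15 and 25 in K815R. Nkx6-1, a homeobox factor of pancreatic beta cells and motor neurons, had 2, 3 and 2 reads in LacZ and 15, 17 and 12 in K815R. In each of these 5 genes the lowest K815R library exceeded the highest library of all other groups.

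Tested against LacZ, the adjusted p of edgeR was 2.57e-04 for Barx1, 1.48e-05 for Pou3f1, 0.00112 for Wnt7b, 0.00364 for Foxd1 and 0.00368 for Nkx6-1, and each was called in every fit that left out 1 library. These genes passed the filter on low counts through K815R, the group in which they were high and for which they were singled out, so these p-values describe them without adding support. In a bulk culture, fewer cells with such a transcript and less of it per cell cannot be told apart. A few reads per library correspond to under 2 CPM, so these are low levels even in K815R.

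Further genes past 2-fold, beside Kat6a, were the following. Cilp2, a matrix protein of cartilage, had 26, 25 and 19 reads in LacZ and 72, 91 and 66 in K815R (log2 fold change 1.78, SE 0.23), and was also above WT by 0.94 (adjusted p 0.0225). Bhlhe23, a basic helix-loop-helix factor of retinal and brain neurons, had 4, 2 and 2 reads in LacZ and 14, 17 and 11 in K815R, with 4, 7 and 8 in WT (K815R against WT, adjusted p 0.216). Nptx2, a neuronal pentraxin of synapses, had 38, 30 and 23 reads in LacZ and 65, 64 and 54 in K815R, and its WT libraries had 54, 39 and 45. On the CPM scale WT, at 2.74, 2.02 and 2.14, overlapped K815R at 3.35, 2.52 and 2.45. Egr3, an immediate early zinc finger factor, rose by 1.60 (SE 0.336) and stood at 1.18, 1.18 and 1.91 CPM in K815R against 0.587, 0.357 and 0.451 CPM in LacZ. Its call was lost without LacZ replicate 2 or K815R replicate 3 (adjusted p up to 0.081). Uchl3, a ubiquitin hydrolase, had 22, 9 and 17 reads in LacZ and 58, 59 and 52 in K815R, while 1 WT library reached 41. AABR07058422.1, without a name, had 4, 1 and 6 reads in LacZ and 20, 23 and 22 in K815R. Amn, a membrane protein of cobalamin uptake, rose by 1.62, and its call was lost without LacZ replicate 2 or K815R replicate 2 (adjusted p up to 0.0634). The calls of Pou3f3, Pcdh10, Dio3, Itpka and Wnt10b, which rose by 1.87, 1.47, 1.43, 1.09 and 1.30, were lost in at least 5 of 6 fits without 1 library, with adjusted p up to 0.205. The 18 genes had a median log2 difference from LacZ of 1.83 in K815R, 0.71 in WT and 0.22 in the K815Q-labelled libraries. The K815R and LacZ values chose these genes, so the medians are descriptions.

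Genes below the filter on low counts were examined in a fit without that filter. Among the 8428 genes outside the filtered set it called 30 higher (0.356%) and 3 lower (0.0356%) in K815R than in LacZ. Named after their values were seen, the 30 included the developmental regulators Sp9, a factor of the embryonic forebrain, En2 and Wnt1 of the midbrain and hindbrain, Tbx1 of the pharynx and outflow tract, Pitx1 of the hindlimb, Nkx2-3 and Tlx1 of the spleen, Lbx1 of migrating limb muscle precursors, Uncx of the somites, Lhx5 and Six3 of the forebrain and Olig2 of the oligodendrocyte lineage. Tbx1 is a known target of KAT6A in the mouse embryo. Vgf, Nefl, Slc32a1, Cdk5r2 and Pcdh8, products of neurons, were also among them, as were Trappc2b, Nup62cl and loci without a name.

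Sp9 had 0, 0 and 1 reads in LacZ, 12, 10 and 18 in K815R, 0, 2 and 0 in WT and 0, 1 and 2 in the K815Q-labelled libraries. Tbx1 had 1, 1 and 0 reads in LacZ, 10, 17 and 7 in K815R, 2, 2 and 1 in WT and 1, 1 and 2 in the K815Q-labelled libraries. Wnt1 had 0 reads in all LacZ libraries, 10, 14 and 6 in K815R, 1 in all WT libraries together and 0 in those labelled K815Q. For each of these 3 genes all K815R libraries were above all 9 others. In the unfiltered fit the adjusted p against LacZ was 1.31e-06 for Sp9, 8.57e-05 for Tbx1 and 1.11e-05 for Wnt1. These genes were taken from those that the same test called, so the p-values describe them without adding support. Nor can they be set beside those of the filtered fit. The unfiltered edgeR fit gave an adjusted p of 6.81e-24 for Hspa2 against 9.28e-07 with the filter, and 0.116 for Ankrd1 against 0.0336.

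Summed over the 30 genes, the level was 0.412 to 0.631 CPM in LacZ and 8.82 to 11.1 CPM in K815R, the values that chose them. The WT libraries summed to 0.661 to 1.41 CPM and those labelled K815Q to 0.884 to 1.07 CPM. The filter on low counts spanned all 4 groups, so genes with more reads in WT or K815Q-labelled libraries could not enter this set. The sum was high in all K815R libraries and low in the other 9, in part through this choice. Some members rested on 1 library: Trappc2b had 0, 1 and 24 reads in K815R, and LOC103689947 had 1, 2 and 12. The number called ranged from 14 without LacZ replicate 3 and 17 without LacZ replicate 2 to 29 without K815R replicate 2, and of the original 30 between 13 and 21 were called each time. The share of reads outside annotated genes overlapped, at 11.8% to 12.4% against 11.7% to 12.2% in LacZ and 12.1% to 12.9% in the other 6 libraries. Markers of Schwann and neuronal cells summed to 310 to 354 CPM in K815R and 317 to 326 CPM in LacZ, which overlapped, but 7 of the 8 tested were positive and Tubb3, a neuronal tubulin, was called higher (log2 fold change 0.31, called in 0 of 6 fits without 1 library). Their median distance from the LacZ mean was 0.22, 0.09 and 0.26 in K815R, 0.02, 0.01 and -0.00 in LacZ and 0.22, -0.02 and 0.12 in WT, and their part in these rises was not tested. In the WT comparison with LacZ the same fit called 12 such low genes higher and 12 lower, 0.142% each, and for the libraries labelled K815Q 13 (0.154%) and 8 (0.0949%).

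**Figure D2:**
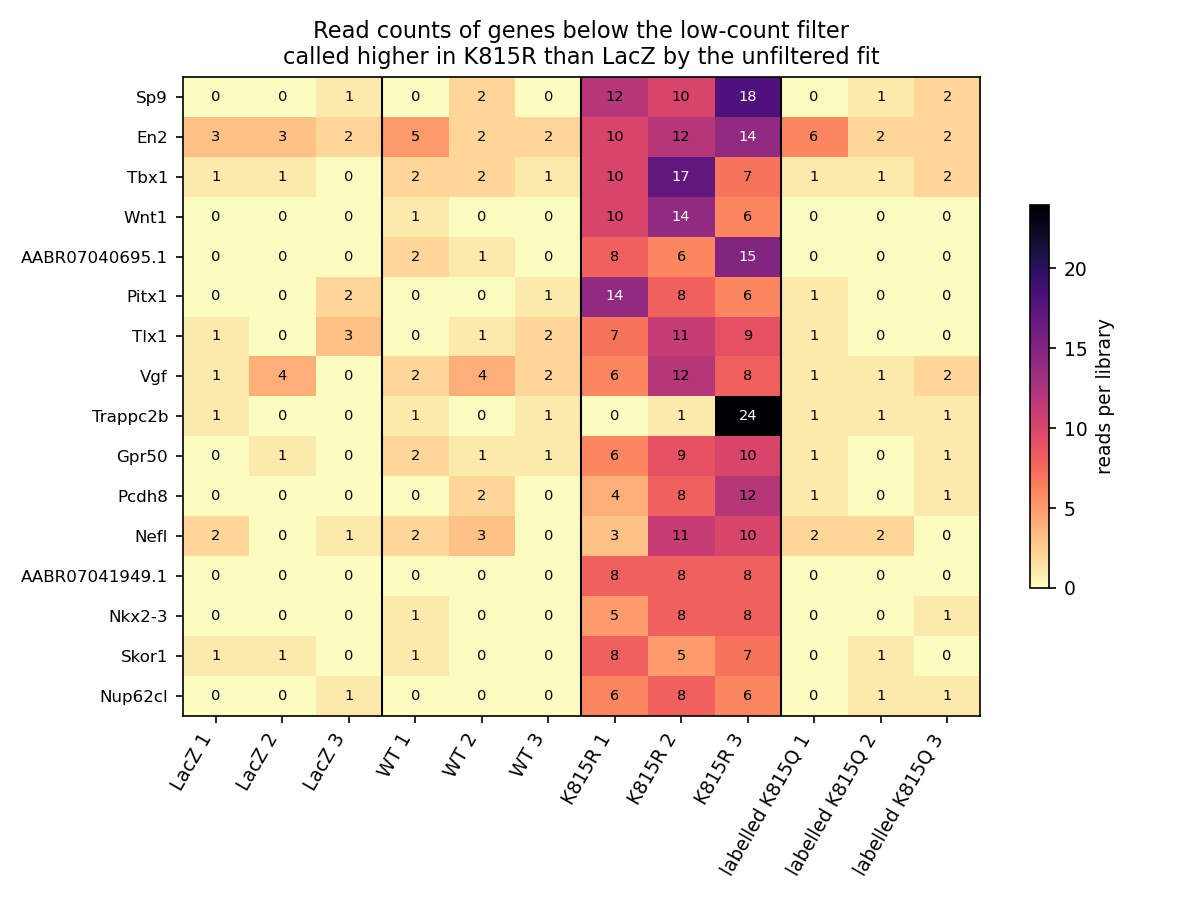
Read counts per library (colour and printed number) of those genes below the low-count filter that the unfiltered fit called higher in K815R than in LacZ and that had at least 20 reads over the K815R libraries (16 of the 30), with the 12 libraries in columns. The K815R columns hold most of the reads, such as 12, 10 and 18 for Sp9, while LacZ, WT and the libraries labelled K815Q hold between 0 and 6 reads per gene and library.

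Across whole gene families the change touched few members, and the families were grouped after their values were seen. Of all tested genes 0.740% were higher. Of 191 homeobox and POU genes in the table, matched by patterns of symbols that do not cover the whole family, 55 passed the filter and 5 of these were higher in K815R (Barx1, Pou3f1, Nkx6-1, Pou3f3 and Irx3), with 0 lower and a median log2 fold change of 0.11. Of 19 WNT ligands, 7 passed the filter and Wnt4, Wnt7b and Wnt10b were higher. Of 41 forkhead genes 21 passed, with Foxc1 and Foxd1 higher and Foxm1 and Foxk2 lower, and of 35 basic helix-loop-helix genes of neural and mesodermal development 14 passed, with Bhlhe23, Hand2 and Scx higher. Members that passed a filter through the group in which they are high had to differ, so these counts are descriptions. Genes of the HOX clusters and other established KAT6A targets, a list of 45 names with 14 tested, had a median of 0.00 and 1 call, Cdkn2a, which encodes the cell cycle inhibitors p16 and ARF and stood at 2.72, 2.63 and 2.91 CPM in LacZ and 4.33, 4.10 and 3.86 CPM in K815R (log2 fold change 0.57, adjusted p 0.0241). That call was lost in 5 of 6 fits without 1 library, with adjusted p up to 0.102. The list does not separate genes that KAT6A raises from genes that it restrains, so nothing is read from the direction of Cdkn2a.

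The stretch of 250 bases before the start site was read for the genes that matched the RefSeq promoter table, on build GRCr8, which is not the build of the counts and was matched by gene only. Of the 18 at-least-2-fold genes 9 matched, and the windows of Foxd1 and Nkx6-1, chosen after their values were seen, are shown to give the base composition of such promoters, with each CG pair in capitals.
Foxd1, chr2:31436552-31436801, plus strand: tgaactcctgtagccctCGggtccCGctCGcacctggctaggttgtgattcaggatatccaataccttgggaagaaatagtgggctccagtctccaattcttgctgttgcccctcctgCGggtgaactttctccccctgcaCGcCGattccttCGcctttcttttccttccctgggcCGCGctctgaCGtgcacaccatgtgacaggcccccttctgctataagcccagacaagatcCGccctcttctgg
Nkx6-1, chr14:8273988-8274237, plus strand: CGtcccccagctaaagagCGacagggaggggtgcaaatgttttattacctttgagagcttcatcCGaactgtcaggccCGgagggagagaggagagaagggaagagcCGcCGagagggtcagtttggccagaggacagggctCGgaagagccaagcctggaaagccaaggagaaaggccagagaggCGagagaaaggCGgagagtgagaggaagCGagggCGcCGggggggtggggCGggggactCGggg
The Foxd1 window holds 11 CG pairs and that of Nkx6-1 holds 14. Over the 9 windows the median GC content was 62.4% and the median ratio of observed to expected CG pairs 0.675, against 60.4% and 0.737 over the 10084 tested genes with a window, so CG content did not set these few promoters apart.

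Among genes at 5 CPM or more, the higher set was led by a chaperone and by regulators of transcription. Hspa2, a heat shock chaperone best known from testis, stood at 12.9, 13.5 and 12.7 CPM in LacZ and 24.2, 25.0 and 25.7 CPM in K815R. Its groups were far apart, with a log2 fold change of 0.94 (SE 0.0828) and an adjusted p of 9.28e-07. The WT libraries, with a mean of 19.3 CPM, lay between (K815R minus WT 0.37, adjusted p 0.0182). Of 38 heat shock and DNAJ chaperone genes only Hspa2 and Hspa1b were higher, the latter with a near-identical copy that makes its count uncertain and a call in 1 of 6 fits without 1 library, and the list's median was -0.01.

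Cebpa, a basic leucine zipper factor of fat, liver and myeloid cells, was nearly constant within K815R at 8.91, 8.87 and 8.85 CPM, against 5.28, 4.23 and 4.59 CPM in LacZ (log2 fold change 0.91, SE 0.108, adjusted p 3.79e-05). It was also above WT by 0.71 (adjusted p 9.56e-04) and above the libraries labelled K815Q by 0.67 (adjusted p 0.00458), a comparison in which 0.213% of all genes were called higher. All 9 other libraries lay below every K815R library. Epop, a partner of Polycomb repressive complex 2 and Elongin, followed this pattern: it stood at 7.78, 7.72 and 7.17 CPM in K815R and 5.53, 4.99 and 5.29 CPM in LacZ, a difference of 0.52 (SE 0.102), and it was above WT by 0.80 (adjusted p 1.97e-04) and above the libraries labelled K815Q by 0.54 (adjusted p 0.0217). Of 42 Polycomb and Trithorax genes, Epop was the 1 called higher. Foxc1, a forkhead factor of heart and vessel development, stood at 8.50, 8.83 and 9.17 CPM in K815R and 6.37, 5.08 and 5.82 CPM in LacZ. It exceeded WT by 0.49 (adjusted p 0.0128). High K815R values chose the higher genes named in this report, so their differences from WT and the K815Q-labelled libraries add no support. Among the 104 higher genes, 28 were called above WT and 15 above the libraries labelled K815Q, with 2 and 0 called below.

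Klf2, a Kruppel-like factor known from endothelial cells under flow, stood at 13.1, 12.9 and 14.7 CPM in K815R and 9.05, 10.2 and 8.28 CPM in LacZ (log2 fold change 0.57, adjusted p 6.66e-04). The libraries labelled K815Q had a mean of 14.7 CPM, as high as K815R. Sphk1, which makes the lipid mediator sphingosine 1-phosphate, stood at 32.7, 34.4 and 32.5 CPM in K815R and 23.4, 24.8 and 23.9 CPM in LacZ (log2 fold change 0.47, adjusted p 4.71e-04), without overlap. Wnt4, a WNT ligand of kidney and gonad, rose by 0.53, Ebf3, a helix-loop-helix factor of neurons and muscle, by 0.56, and C2cd4b, an inflammation-induced nuclear protein, by 0.58. The calls of Wnt4 and Ebf3 were lost without LacZ replicate 2 (adjusted p 0.0597 and 0.0547), and that of C2cd4b without LacZ replicate 1 or replicate 3. Id1, an inhibitor of helix-loop-helix factors induced by BMP, stood at 46.4, 45.5 and 49.6 CPM in K815R and 33.7, 35.9 and 32.5 CPM in LacZ, a rise of 0.47 with an adjusted p of 0.0346. Although the groups of Id1 did not overlap, its adjusted p was between 0.0822 and 0.164 when any 1 library was left out. The intermediate filament Nes, raised by 0.48, was likewise called in none of those fits, and Depdc7 and Cnrip1, raised by 0.48 and 0.46, in 2 and 3 of 6.

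In the list of immediate early transcription factors 4 of 36 tested were higher (Egr3, Klf2, Myc and Dusp4) and 0 were lower. Of these Dusp4 is a phosphatase that the response induces. The median was 0.16 against 0.00 over all genes, and the higher calls ranged from 2 to 4 over fits without 1 library. Over all genes 0.740% were higher and 1.74% lower, the shares to set beside this list and those that follow. Dusp4 stood at 67.4, 77.6 and 70.3 CPM in K815R and 58.5, 59.8 and 58.0 CPM in LacZ, and exceeded WT by 0.25 (adjusted p 0.0183) and those labelled K815Q by 0.44 (adjusted p 2.63e-04). Myc rose by 0.30, and its call was lost without LacZ replicate 3, K815R replicate 2 or K815R replicate 3 (adjusted p up to 0.147). In the WNT and Notch list 3 of 44 genes were higher, the ligands Wnt4, Wnt7b and Wnt10b, and 1 was lower, the secreted WNT antagonist Sfrp2. Sfrp2 stood at 11.3, 16.4 and 13.2 CPM in LacZ and 9.79, 8.12 and 8.45 CPM in K815R, a fall of 0.64 that remained called in 1 of 6 fits without 1 library (adjusted p up to 0.128). The axon guidance list had 3 of 63 genes higher, the ligands Efna5, Efnb2 and Ntn1, and 1 lower, LRRTM1. The calls of the 3 ligands were lost in 4, 3 and 5 of 6 fits without 1 library, with adjusted p up to 0.172.

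**Figure D3:**
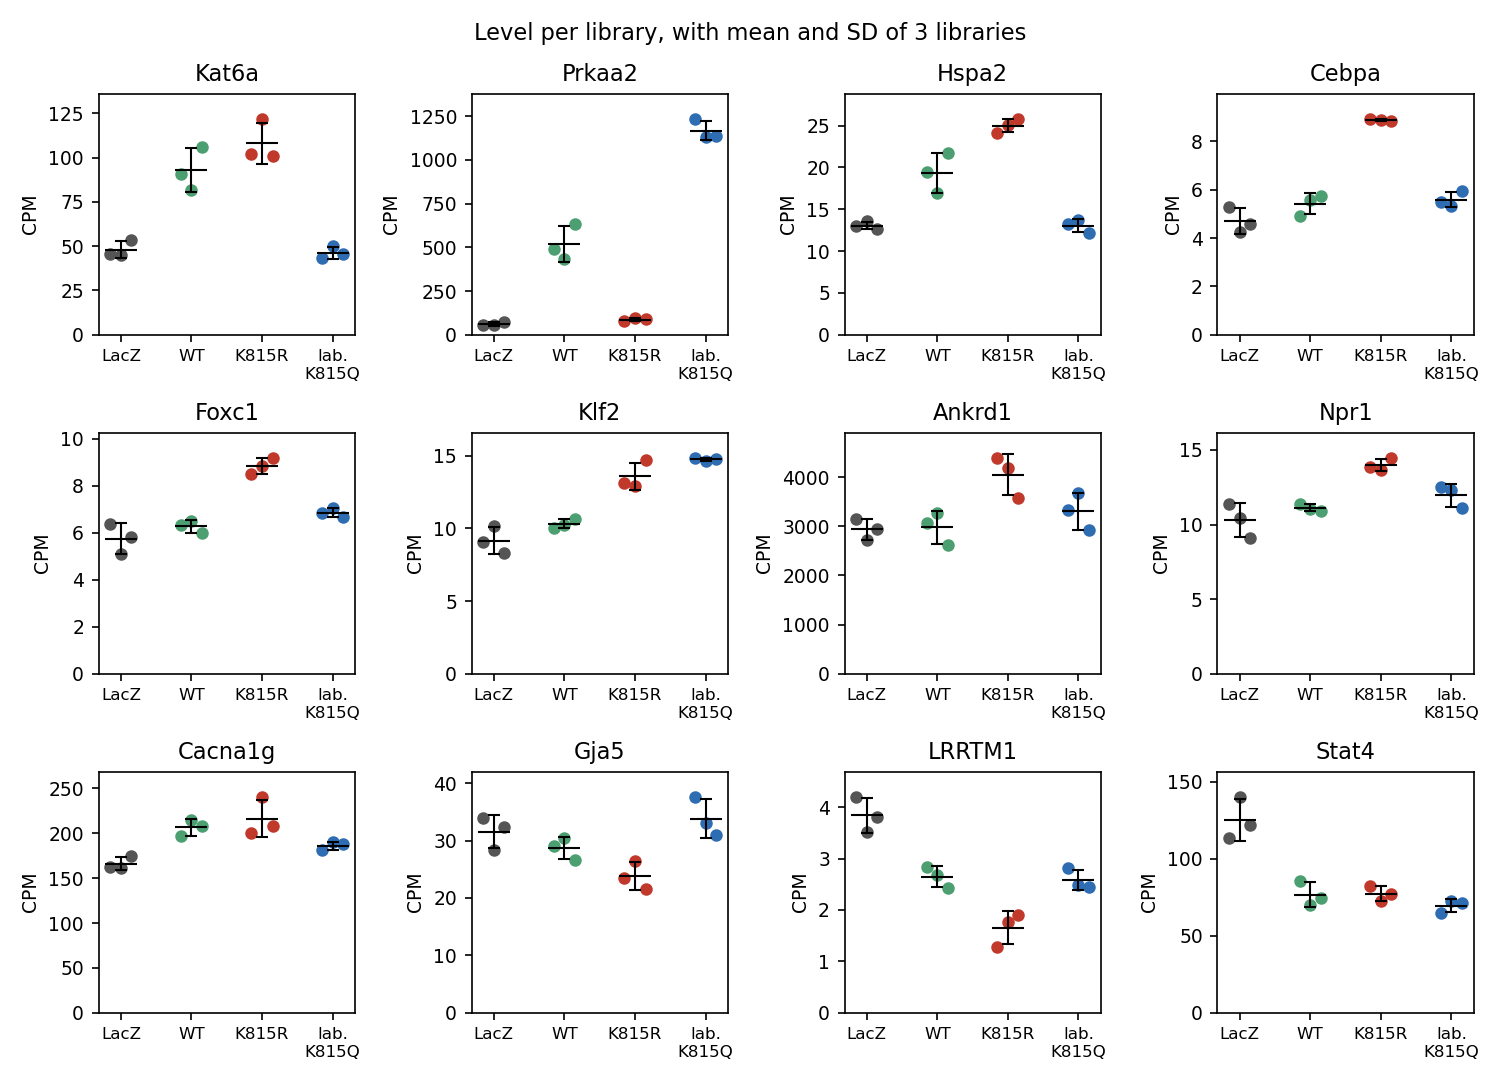
Levels in CPM (axes from 0) of 12 genes in each of the 12 libraries, as points by group with a bar at the mean and whiskers of 1 SD (n = 3). Hspa2, Cebpa and Foxc1 are highest in K815R, Klf2 is as high in the libraries labelled K815Q, Prkaa2 is raised in WT and further in those labelled K815Q, and LRRTM1 is lowest in K815R.

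Genes of heart muscle itself changed little. Ankrd1, a stress-responsive ankyrin repeat protein of the sarcomere and nucleus, stood at 4382.5, 4181 and 3580.4 CPM in K815R and 3149 CPM, 2729 CPM and 2943 CPM in LacZ. The groups did not overlap, and the log2 fold change was 0.46 (SE 0.103, adjusted p 0.0336). The call was lost without LacZ replicate 2, LacZ replicate 3, K815R replicate 1 or K815R replicate 2, with adjusted p up to 0.155. Myom2, an M-band protein, rose by 0.37, also called in 2 of 6 such fits, and these were the 2 called genes among 37 of sarcomere and Z-disc, whose median was 0.07. Cacna1g, a T-type calcium channel of pacemaker and fetal heart cells, stood at 201, 240 and 208 CPM in K815R and 163, 161 and 175 CPM in LacZ (log2 fold change 0.38, SE 0.0591, adjusted p 5.53e-04) and was called in all 6 fits. WT had a mean of 207 CPM, and K815R and WT differed by 0.07 (adjusted p 0.696).

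Gja5, a gap junction connexin of atrium and conduction system, went the other way, at 23.4, 26.5 and 21.6 CPM in K815R and 33.9, 28.4 and 32.4 CPM in LacZ. It fell by 0.40 (adjusted p 0.0132) and lay 0.50 under the libraries labelled K815Q (adjusted p 0.0122), where 0.149% of all genes were called lower, but the LacZ call was lost without LacZ replicate 1 or 3 or K815R replicate 1 or 3 (adjusted p up to 0.0932). Npr1, the receptor for atrial and B-type natriuretic peptides, stood at 13.9, 13.6 and 14.4 CPM in K815R and 11.4, 10.4 and 9.10 CPM in LacZ, a rise of 0.44 (adjusted p 0.00665) that was lost without LacZ replicate 3 (adjusted p 0.0509). Among 25 natriuretic peptide and hypertrophy genes, Ankrd1 and Npr1 were the called members. Cardiac transcription factors had a median of 0.11, with Foxc1, Hand2 and Irx3 higher out of 31 and 0 lower, where 0.740% of all genes were higher. Hand2, a helix-loop-helix factor of the right ventricle and outflow tract, stood at 33.1, 30.5 and 30.9 CPM in K815R and 27.5, 25.1 and 25.7 CPM in LacZ, and Irx3, a homeobox factor of the conduction system, at 63.8, 61.4 and 63.1 against 54.8, 49.2 and 50.1 CPM. Their calls held in 2 and 1 of the 6 fits without 1 library.

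Genes of mitosis were the most numerous lower group outside the immune lists. Of 66 tested genes of the S and G2/M phases 21 were lower, 0 were higher and 58 had a negative log2 fold change. The median was -0.34 against 0.00 over all genes, of which 1.74% were lower and 51.2% had a positive log2 fold change. Mki67, the marker of cycling cells, stood at 41.1, 46.6 and 45.2 CPM in LacZ and 32.2, 34.0 and 34.1 CPM in K815R, a fall of 0.41 (SE 0.0685, adjusted p 0.00138). Top2a, the topoisomerase that untangles chromosomes, stood at 63.5, 74.0 and 69.1 CPM in LacZ and 48.8, 48.6 and 56.3 CPM in K815R. Kif2c, a kinesin that removes tubulin at the kinetochore, had 15.4, 15.7 and 13.2 CPM in LacZ and 8.81, 8.83 and 10.9 CPM in K815R, the largest fall in the list at -0.63 (SE 0.117). Prc1, which bundles microtubules of the central spindle, fell by 0.62, from 52.0, 63.5 and 58.8 CPM to 33.1, 36.4 and 44.0 CPM. In each of these 4 genes every K815R library was below every LacZ library. The call of Top2a was lost without K815R replicate 1 or 2 (adjusted p 0.0567 at most) and that of Prc1 without LacZ replicate 3 or K815R replicate 2 (0.0664 at most).

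Other called members were the mitotic cyclin Ccnb1 with its kinase Cdk1, the kinases Plk1, Aurka and Bub1, the spindle proteins Spag5, Tpx2, Nusap1, Dlgap5 and Kif11, the kinetochore proteins Cenpe, Cenpf and Nuf2, the ubiquitin ligase factors Cdc20 and Ube2c, Anln of the contractile ring and Foxm1, the forkhead factor that drives mitotic genes. Outside the list Pttg1, or securin, with Ckap2l, Depdc1 and Mitd1, a protein of the final cut between daughter cells, were among the 15 largest falls, and Kif22, Cdkn3, Knstrn, Spc24, Spc25 and Incenp, singled out after their values were seen, were also lower. Of these 10 only Ckap2l was called in more than 2 of the 6 fits without 1 library, and adjusted p reached 0.242. The number of calls in the list ranged from 4 without K815R replicate 1 to 22, and its median from -0.40 to -0.27. Per library, the list's median distance from the LacZ mean was -0.33, -0.38 and -0.22 in K815R, and -0.08, 0.11 and -0.02 in LacZ, so K815R lay below LacZ in every library. The 21 genes had a median log2 difference from the same LacZ libraries of -0.44 in K815R, -0.38 in WT and -0.44 in the K815Q-labelled libraries. Low K815R values against LacZ chose these 21 genes. Over all 66 tested members of the list the medians were -0.34 in K815R, -0.28 in WT and -0.35 in the K815Q-labelled libraries. Whether cardiomyocytes or other cells of the culture carried these transcripts cannot be told apart in bulk RNA.

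**Figure D4:**
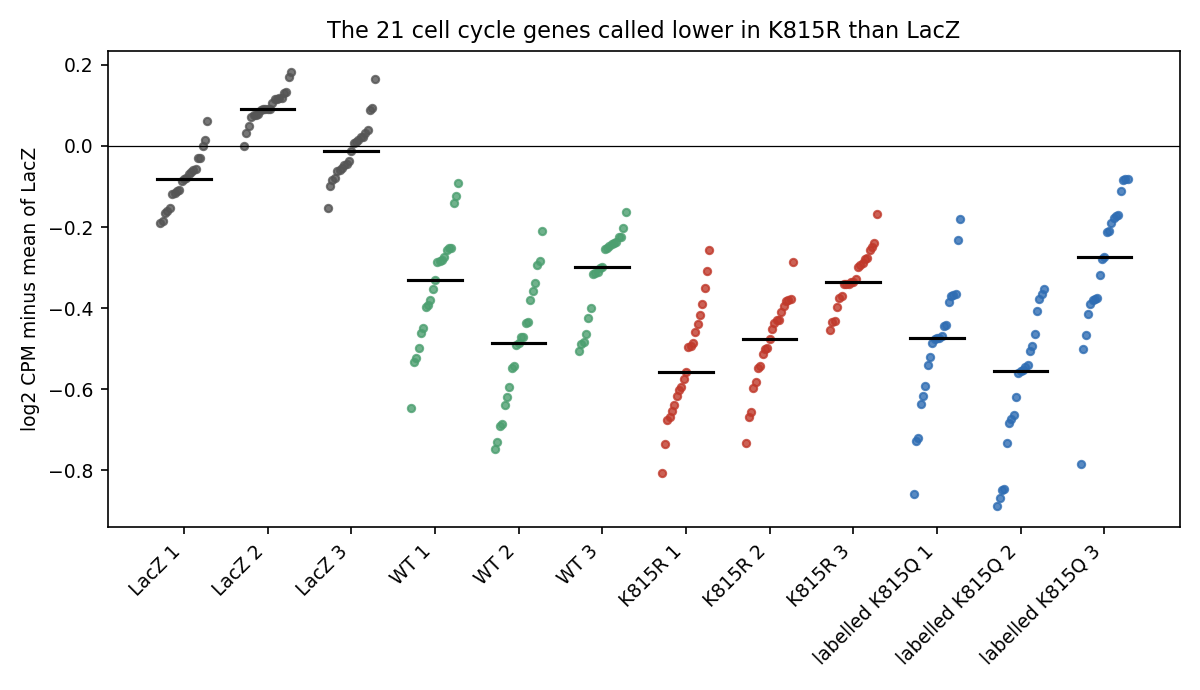
Log2 CPM minus the mean of the LacZ libraries for the 21 cell cycle genes called lower in K815R than in LacZ, 1 point per gene in each of the 12 libraries, with a bar at the median. The K815R, WT and K815Q-labelled libraries lie below LacZ, and LacZ replicate 2 is the highest of the controls. The K815R and LacZ values chose these genes.

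Windows of Prc1 and Spag5 are shown because they hold the letters TTTGAA of the cell cycle homology region, through which mitotic genes are repressed outside of division. The motif was searched on both strands and is in capitals; on the minus strand it reads TTCAAA.
Prc1, chr1:143659231-143659480, plus strand: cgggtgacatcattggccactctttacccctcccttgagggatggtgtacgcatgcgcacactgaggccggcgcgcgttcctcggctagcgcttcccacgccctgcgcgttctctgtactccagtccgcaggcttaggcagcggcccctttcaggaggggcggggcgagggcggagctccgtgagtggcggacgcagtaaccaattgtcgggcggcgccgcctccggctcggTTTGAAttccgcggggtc
Spag5, chr10:63696586-63696835, plus strand: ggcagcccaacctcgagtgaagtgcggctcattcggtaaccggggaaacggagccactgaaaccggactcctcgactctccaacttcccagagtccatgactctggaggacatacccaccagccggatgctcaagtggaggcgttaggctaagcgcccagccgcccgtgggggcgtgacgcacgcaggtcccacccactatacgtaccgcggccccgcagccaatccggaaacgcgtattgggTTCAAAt
Of the 21 lower cell cycle genes 18 had a window, and 7 of these (38.9%) held TTTGAA, against 10.0% of the windows of tested genes and 16.0% of all 27455 windows. The 7 were Prc1, Spag5, Cdc20, Anln, Top2a, Mki67 and Cdk1. The letters CCAAT, known from the same promoters, were in 13 of 18 windows (72.2%) against 35.2% of tested genes. TTTGAA was in 17.2% of windows of lower genes in no interferon, antigen or cell cycle list and in 13.8% for lower interferon genes. Uncalled members of the cell cycle list were not counted, so the shares in that list cannot be assigned to its lower genes alone. A match describes the sequence and does not show that a factor was bound.

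Among lower genes outside the cell cycle, several named ones fell without overlap between groups and were called in all 6 fits that left out 1 library. Stat4, a transcription factor of interleukin 12 and interferon signalling, stood at 113, 140 and 122 CPM in LacZ and 82.4, 72.4 and 77.3 CPM in K815R, a fall of 0.69 (SE 0.0825, adjusted p 2.57e-04). Its WT mean of 76.6 CPM and its mean of 69.5 CPM in the libraries labelled K815Q were close to that of K815R. Myl1, an essential myosin light chain of fast skeletal muscle, had 14.6, 18.7 and 14.8 CPM in LacZ and 9.48, 9.18 and 9.99 CPM in K815R (log2 fold change -0.74). LOC299282, a symbol with no further name in the files, fell by 0.75. AABR07013651.1, a gene with no other name in the files, had the largest fall among the named genes of this set at 5 CPM or more. It stood at 46.3, 82.8 and 65.4 CPM in LacZ and 18.9, 20.7 and 16.0 CPM in K815R (log2 fold change -1.80, adjusted p 0.00767). It was not called in a fit of the 6 compared libraries alone (adjusted p 0.0749). AC119015.4 and AABR07059663.1, also without a name, fell by 0.73 and 0.72. Tmem106a, a membrane protein of macrophages, fell by 0.69 with a call kept in 2 of 6 fits (adjusted p up to 0.142). AABR07058464.1 fell by 1.38, and its call was lost without any 1 of the K815R libraries (adjusted p up to 0.0597). AABR07013651.1 had 4558 reads over the LacZ, 1040 over the WT and 819 over the K815Q-labelled libraries, and AABR07058464.1 had 1908, 549 and 493. Lists go by gene symbol, so these loci without a name were in none of the immune lists, and a tie to interferon genes was not tested.

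A smaller set was lower in K815R than in both LacZ and WT. LRRTM1, a synaptic adhesion protein with leucine-rich repeats, stood at 4.19, 3.52 and 3.81 CPM in LacZ and 1.29, 1.77 and 1.91 CPM in K815R, a fall of 1.20 (SE 0.163, adjusted p 1.95e-04), and was below WT by 0.66 (adjusted p 0.0479). Ccl20, a chemokine that attracts CCR6-bearing lymphocytes, had 5.53, 5.30 and 5.70 CPM in LacZ and 3.14, 2.92 and 3.81 CPM in K815R, and was below WT by 0.64 (adjusted p 0.0167). Crhr2, the receptor for the cardioactive peptide urocortin, stood at 13.7, 13.5 and 14.1 CPM in LacZ and 9.58, 9.85 and 10.0 CPM in K815R, a fall of 0.49 (adjusted p 0.00138), and was below WT by 0.34 (adjusted p 0.0388). Ckmt2, the creatine kinase of sarcomeric mitochondria, fell by 0.45 against LacZ and was below WT by 0.47 (adjusted p 0.0107), although the LacZ call was lost without LacZ replicate 1 or K815R replicates 2 or 3. Of the 159 lower genes outside the immune lists 12 were also called lower than WT and 1 higher, where 0.882% and 1.32% of all genes were, from which nothing is read because low K815R values chose them. Their median log2 differences from the shared LacZ libraries were -0.45 in K815R, -0.35 in WT and -0.39 in the K815Q-labelled libraries.

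Matrix and signalling genes moved in both directions, where over all genes 0.740% were higher and 1.74% lower. Of 76 collagens and matrix proteins 5 were lower (Tnc, Loxl3, Fmod, Prelp and Fbln2) and 3 higher (Cilp2, Comp and Fbln1), and the median was -0.02. Of these Tnc, Loxl3 and Cilp2 were called in all 6 fits without 1 library, and the other 5 in at most 2 (adjusted p up to 0.208). Tnc, the wound matrix protein tenascin C, stood at 178, 177 and 183 CPM in LacZ and 129, 150 and 126 CPM in K815R (log2 fold change -0.41, SE 0.0566, adjusted p 2.09e-04). Col1a1, the main fibrillar collagen, did not pass the test (log2 fold change -0.14, adjusted p 0.212). Among 39 chemokines and inflammatory mediators Csf1, Ccl20 and Vcam1 were lower and 0 higher, with a median of -0.14. The chemokines Cxcl10 and Cxcl11, also called lower (log2 fold change -2.05 and -0.53), were not in this list. Csf1, the growth factor of macrophages, stood at 97.2, 103 and 106 CPM in LacZ and 78.4, 77.1 and 75.5 CPM in K815R, a fall of 0.41 (adjusted p 4.69e-05). Vcam1, an adhesion molecule for leukocytes, fell by 0.53 with a call that was lost without LacZ replicate 2 or any 1 K815R library (adjusted p up to 0.286). Of 31 targets of p53, Zmat3, Ckap2, Gtse1 and Fas were lower, and of these Ckap2 and Gtse1 also act in mitosis. Each was called in at most 3 of 6 fits without 1 library. The median of the p53 list was -0.08 in K815R, -0.16 in WT and -0.10 in the K815Q-labelled libraries. At unequal depth, Csf1 had 7227 reads over LacZ, 5141 over K815R, 4725 over WT and 4658 over the K815Q-labelled libraries. Tnc had 12712, 9085, 8847 and 7971. Enzymes in the lower set included Xdh, which makes uric acid (-0.62), Maoa, which degrades monoamines (-0.36), and Hadh of fatty acid oxidation (-0.26), whose call held in 1 of 6 fits without 1 library.

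The interferon response gives the scale for these changes. Of 108 tested type I interferon genes 70 were lower and 0 higher, with a median of -0.78. Of 34 antigen presentation genes 17 were lower with a median of -0.50, where 1.74% of all genes were lower. These falls were not particular to K815R. Against the same LacZ libraries the median of the interferon list was -0.91 in WT and -1.10 in the K815Q-labelled libraries. That of the antigen list was -0.60 and -0.65. Irf7, the factor that amplifies interferon production, stood at 75.0, 153 and 81.9 CPM in LacZ and 29.3, 20.1 and 19.9 CPM in K815R (log2 fold change -2.17, adjusted p 0.0238). Ifit3 and Ifit1, which bind viral RNA, fell by 2.24 and 2.18, and the class I gene RT1-T24-3 went from 14.6, 28.4 and 15.9 CPM to 4.69, 3.78 and 4.40 CPM. LacZ replicate 2 was the highest control in all 4 of these genes. Each call was lost without any 1 of the K815R libraries, those of Irf7 and Ifit1 also without LacZ replicate 2 and that of Ifit1 without LacZ replicate 3 (adjusted p up to 0.103). In a fit of the 6 compared libraries alone the adjusted p was 0.178 for Ifit3, 0.122 for Irf7 and 0.0777 for RT1-T24-3. The calls in the interferon list ranged from 49 to 67 over fits without 1 library, and those in the antigen list from 7 without K815R replicate 2 to 18, with a median from -0.60 to -0.30. Copies of Ifit and RT1 genes resemble each other, so their counts are uncertain.

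Windows of Ifit3 and Irf7 are shown with the interferon-stimulated response element in capitals, searched on both strands as GAAA, any 2 bases and GAAA again, together with that of Serpinb2, a lower gene outside the lists that holds the same letters.
Ifit3, chr1:241527076-241527325, plus strand: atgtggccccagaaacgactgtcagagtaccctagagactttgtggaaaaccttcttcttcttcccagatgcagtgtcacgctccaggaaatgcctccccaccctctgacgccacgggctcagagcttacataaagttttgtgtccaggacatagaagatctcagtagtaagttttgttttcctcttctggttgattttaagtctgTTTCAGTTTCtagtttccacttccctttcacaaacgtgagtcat
Irf7, chr1:205800024-205800273, minus strand: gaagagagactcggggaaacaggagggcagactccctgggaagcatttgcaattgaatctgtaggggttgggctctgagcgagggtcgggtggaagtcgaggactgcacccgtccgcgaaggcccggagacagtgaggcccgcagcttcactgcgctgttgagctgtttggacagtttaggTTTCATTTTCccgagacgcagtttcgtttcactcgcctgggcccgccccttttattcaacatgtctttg
Serpinb2, chr13:24055771-24056020, plus strand: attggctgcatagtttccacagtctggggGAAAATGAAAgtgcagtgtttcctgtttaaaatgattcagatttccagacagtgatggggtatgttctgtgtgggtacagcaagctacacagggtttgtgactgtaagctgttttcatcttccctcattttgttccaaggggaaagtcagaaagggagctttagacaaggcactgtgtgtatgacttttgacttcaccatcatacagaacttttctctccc
The element was in 28 of the 58 windows of lower interferon genes (48.3%) against 2.51% of tested genes and 3.29% of all windows. Outside the immune lists it was in 6 of 117 windows of lower genes (5.13%), those of Serpinb2, Fcgr3a, Vcam1, Spc25, Serpinb9 and Slc1a3, and in 1 of 67 windows of higher genes (1.49%). Serpinb2, a protease inhibitor of activated macrophages, stood at 1.26, 2.81 and 1.76 CPM in LacZ and 0.721, 0.670 and 0.772 CPM in K815R, and its call was lost without LacZ replicate 2 or K815R replicate 1 or 2 (adjusted p up to 0.0986). Most lower genes outside the immune lists thus had no such element in this window, which says nothing about elements elsewhere. Uncalled members of the interferon list were not counted, so the share of 48.3% cannot be assigned to its lower genes alone.

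Metabolic programmes named by the study's title held few or no called genes. For the shares below, 51.2% of all genes tested had a positive log2 fold change. The 13 mRNAs of mitochondrial DNA all had positive log2 fold changes with a median of 0.27, and Mt-co2, a subunit of cytochrome oxidase, was the 1 called, at 11474 CPM, 9737 CPM and 9804 CPM in K815R and 8825 CPM, 7685 CPM and 8539 CPM in LacZ. Among 79 nuclear subunits of oxidative phosphorylation 69 were positive with a median of 0.07, and Cox8b was the 1 called although its groups overlapped, with 263, 211 and 233 CPM in K815R and 214, 187 and 188 CPM in LacZ. Both calls were lost in 4 of 6 fits without 1 library, with adjusted p up to 0.245, while the calls among nuclear subunits ranged from 0 to 5 and their median from 0.03 to 0.14. Ribosomal proteins behaved likewise, with 67 of 69 positive, a median of 0.10 and 2 calls, Rpl34 and Rps27, which have many pseudogene copies and whose calls were also lost in 4 of 6 fits, and calls in the list ranged from 0 to 5. Of 25 genes of the citrate cycle and pyruvate dehydrogenase, Me1, the cytosolic malic enzyme, was lower by a log2 fold change of -0.20, and of 27 effectors of AMPK and mTOR (median -0.05), Eif4ebp1, a repressor of translation, was higher by 0.18. Me1 and Eif4ebp1 were each called in 2 of 6 fits without 1 library (adjusted p up to 0.197). No member was called in the lists of AMPK subunits (14 tested, median 0.03), regulators of mitochondrial biogenesis (21, median 0.05), mitochondrial dynamics (12, median 0.00), glycolysis (27, median 0.04) or cholesterol and fatty acid synthesis (32, median 0.00). The integrated stress response (41), the unfolded protein response (23), lysosome and autophagy (45) and adrenergic signalling (34) also had 0 calls. Among the best-expressed members of these lists, Prkag1 of AMPK, the nuclear receptor Esrra, lactate dehydrogenase Ldhb, the chaperone Hspa5 and the stress factor Atf4 had log2 fold changes of -0.06, -0.03, 0.04, 0.02 and 0.11.

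**Figure D5:**
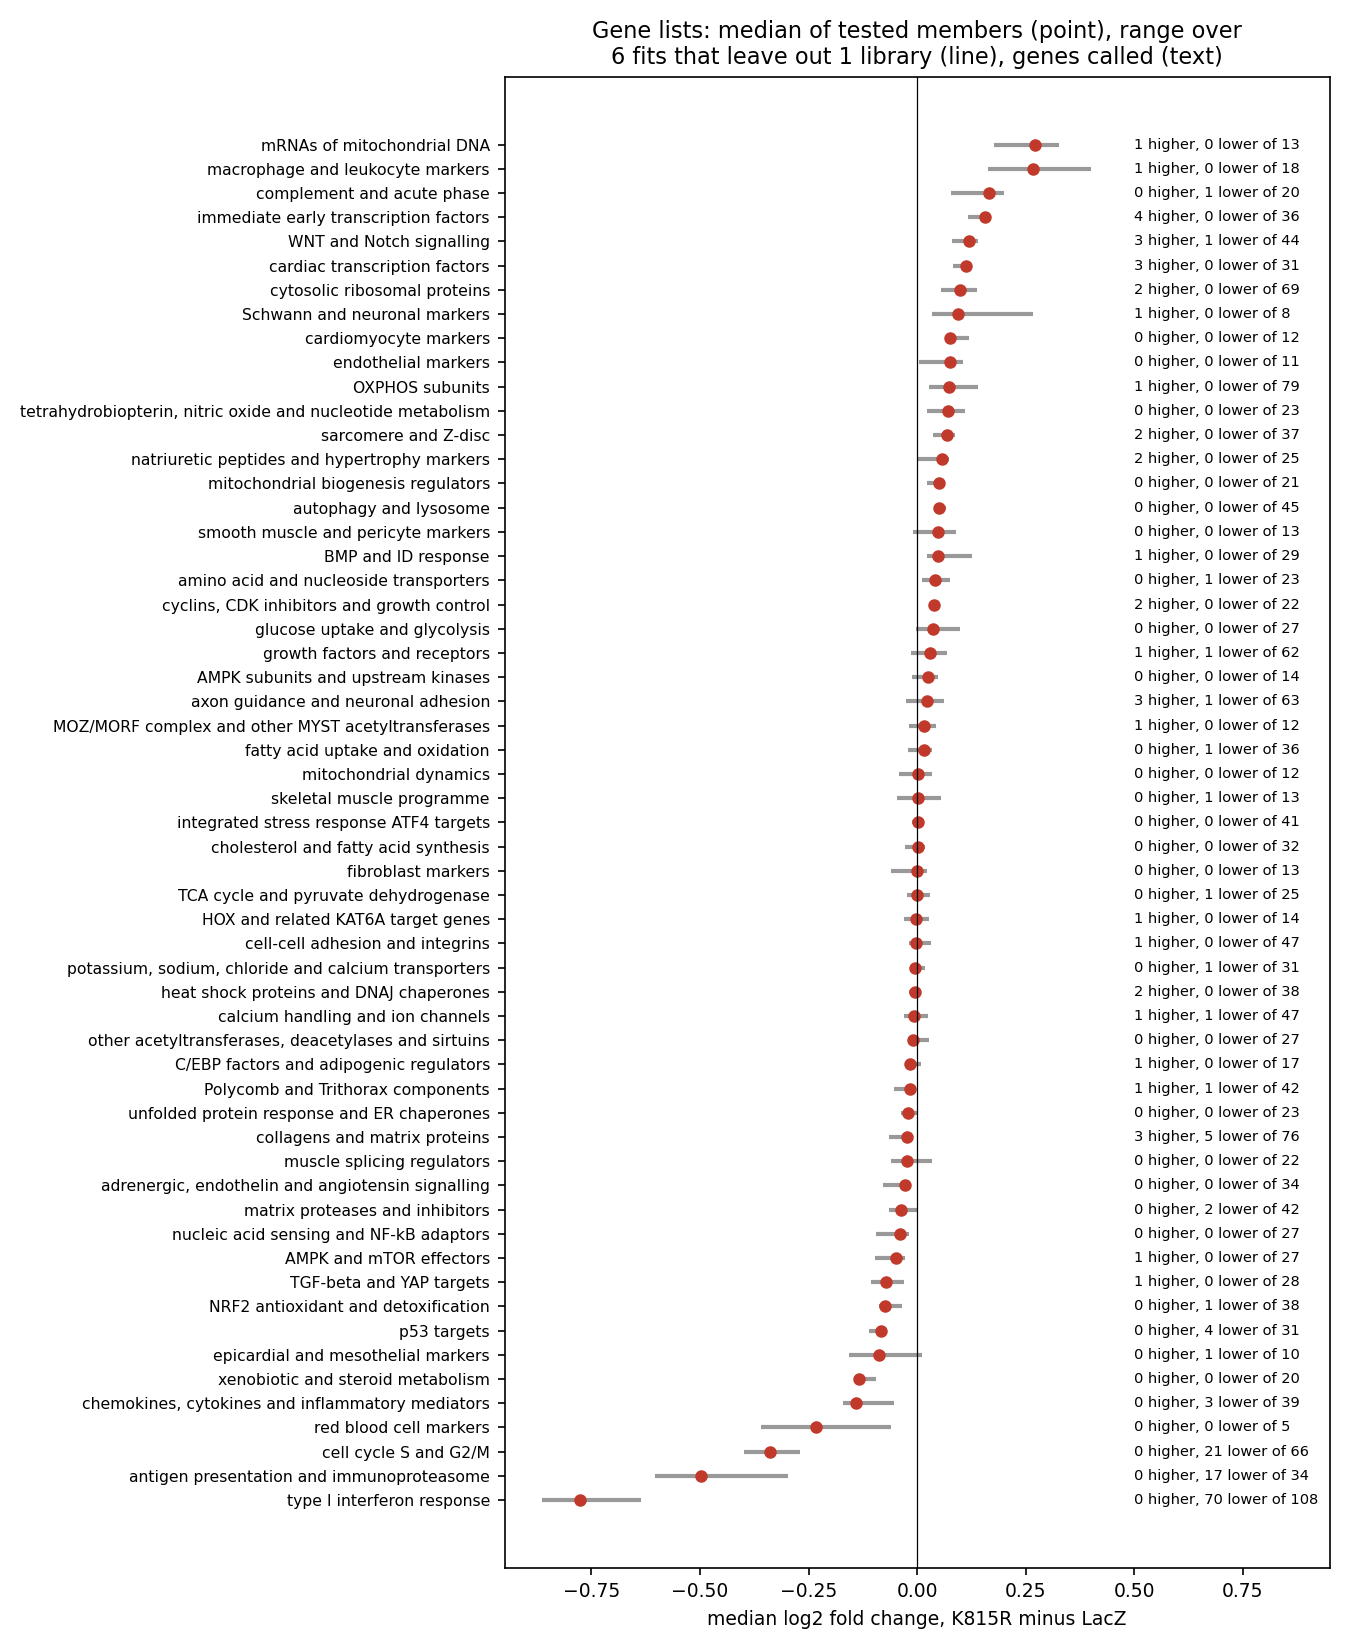
Median log2 fold change, K815R minus LacZ, of the tested members of each list with at least 5 tested (points), its range over the 6 fits without 1 library (lines) and the number of genes called. The interferon, antigen presentation and cell cycle lists lie at -0.78, -0.50 and -0.34, and the other lists lie between -0.23 and 0.27.

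Markers of other cells in the culture were summed per library, and 51.2% of all genes tested had a positive log2 fold change. Macrophage and leukocyte markers, 19 genes of which Cx3cr1 was at 0 in all 6 libraries, summed to 120 to 157 CPM in LacZ and 160 to 173 CPM in K815R, with 17 of 18 tested members positive and Lyz2 called higher (adjusted p up to 0.181 without 1 library). Fibroblast markers summed to 12531 to 13446 CPM in LacZ and 11744 to 12166 CPM in K815R, with 0 of 13 called. Col1a1 and Col3a1 made up most of this sum. Of the 13 markers 7 were positive and 6 negative, with a median of 0.00, so the lower sum was not shared by most members. Cardiomyocyte markers summed to 49933 to 53064 CPM in LacZ and 54889 to 56450 CPM in K815R, with 10 of 12 positive and 0 called. Endothelial markers, of which Cldn5 was at 0 in all 6, summed to 386 to 432 CPM in LacZ and 406 to 454 CPM in K815R. These sums overlapped, but 11 of 11 tested members were positive, with a median of 0.07 and 0 called. Smooth muscle and red blood cell sums also overlapped, with 10 of 13 and 1 of 5 tested members positive. The sums for epicardial markers, at 80.3 to 88.3 CPM in LacZ and 78.2 to 86.2 CPM in K815R, overlapped. The macrophage, fibroblast and cardiomyocyte sums did not overlap between groups, and their part in the matrix, chemokine, cell cycle and other results above was not tested.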

How the data were processed

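Poly(A) RNA of 12 libraries was examined, 3 per group; the 6 labelled K815R and LacZ form the comparison. The authors deposited raw read counts per gene. Per the submitters' processing notes the tools were Trimmomatic 0.39, HISAT2 2.2.1, HTSeq 0.6.1 and edgeR, and the build was Rnor_6.0; neither strand setting nor annotation release is given in the sources used here. Per the labels the library is strand-specific and paired-end but was read as single reads, so overlapping and antisense genes are uncertain. Counter lines that name no gene took 40.7% to 43.3% of reads (11.7% to 12.9% in no feature, 25.6% to 26.9% at several places) and were left out of library sizes and tests, which lowers the count of any gene with a near-identical copy.

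Counts were scaled by TMM, filtered by filterByExpr (minimum count 10, minimum total 15) and tested with the quasi-likelihood test of edgeR 4.0.16 in R 4.3.3, with 4 group means over all 12 libraries, robust dispersion and Benjamini-Hochberg adjustment over 14063 genes. Calls had an adjusted p under 0.05; CPM are TMM-scaled. Tried beside it were scaling by RLE or by the upper quartile, dropping the filter, requiring 10 counts in every library, DESeq2 1.42.0, the 6 libraries alone, a replicate block, a fold of 2 or more and omission of each of the 6 libraries. On simulated data 45 of 67 genes changed 1.5-fold, 58 of 65 changed 2-fold and 65 of 66 changed 4-fold were called, with 14 false calls among 13955 genes. Lists of genes are described by counts and medians, without a set test. Among called genes whose mean reached 5 CPM and whose groups did not overlap, the text names the 15 higher and 15 lower with the largest fold change outside the immune lists, the 4 largest immune falls, Kat6a, Prkaa2 and called members of lists; other names were chosen after their values were seen. The members and lists were chosen with earlier results of these data known. Promoter windows are from RefSeq, build GRCr8, for 10084 of the tested genes. Some called genes are not reported here by name.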

Additional observations from a re-analysis of the deposited data

How the results depend on the processing

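No called gene and no count named in the text changed direction under the alternatives run, but medians of several lists near 0 changed sign without 1 library (AMPK subunits -0.01 to 0.05, mitochondrial dynamics -0.04 to 0.03, KAT6A targets -0.03 to 0.03). The 348 calls became 600 without a filter and 74 with a 2-fold minimum, the 104 higher genes 223 and 18, the 244 lower genes 377 and 56, and the 159 lower genes outside the immune lists 288 and 16. Leaving out 1 library gave 173 to 308 calls, 47 to 91 higher, 125 to 220 lower, 62 to 137 lower outside the lists and, chosen after seeing the data, 14 to 29 higher genes below the filter. RLE, upper-quartile scaling, the stricter filter, DESeq2 and a fit of the 6 libraries gave 355, 371, 331, 356 and 315 calls. Same-numbered libraries did not deviate together, so replicate numbers were not taken as pairs; with the replicate block 390 genes were called, of which 331 were among the 348, and Ifit3, Ifit1 and Irf7 had adjusted p of 0.0585, 0.0518 and 0.0506. The block also ended the calls of Tmem106a, Kif22 and Spc24, and the fit of 6 libraries those of Tmem106a, Cdk1, Lyz2, Fbln2, Vcam1, Cox8b, Rps27, Spc24, Dio3, Eif4ebp1 and Foxk2. With 3 libraries per group, falls and rises of 1.5-fold were missed in part on simulated data, and genes with under 3 reads per library have no order.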
